A study of Mus musculus with 4 samples.

Results

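The proteasome genes of the mouse lens were followed in 4 RNA-seq libraries, 2 from mutant and 2 from control lenses. All protein-coding genes whose symbol names a subunit, activator, inhibitor or assembly chaperone of the proteasome (*Psma*, *Psmb*, *Psmc*, *Psmd*, *Psme*, *Psmf* and *Psmg* followed by a number) were taken, which gave 49 of the 56748 genes listed. The members were chosen by symbol alone, but the family itself was selected on its FPKM differences between mutant and control lenses, which were already known. Those differences are therefore given as a description, and the p-values printed with them are not a test of the family.

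Lenses came from *Fsp1-cre;Pdgfrb*+/D849V mice (mutant) and controls of 10 to 12 days of age. The activating D849V change sits in one allele of the endogenous *Pdgfrb* gene, which encodes the receptor PDGFRβ, and is switched on where cre is made from the *Fsp1* (S100A4) promoter, which is not specific to the lens. The line had been backcrossed to FVB/N and also carried a *Rosa-LSL-tdTomato* reporter allele. With that reporter, the earliest cre activity that the study describes in the lens epithelium is at an age above that of these lenses. The study assumes that the mutant receptor is made once cre is induced. Whether it was made at 10 to 12 days was not tested here. The labels call both control libraries *Fsp1-cre;Pdgfrb*+/+, whereas the study's methods describe control pools that also took in mice without cre, either *Pdgfrb*+/+ or *Pdgfrb*+/D849V, so some control tissue may have lacked cre. Lenses of several mice were pooled for each library, so the spread between the 2 libraries of a group is a spread between pools.

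The libraries held 18561682 to 18878768 reads assigned to genes, as recovered from the deposited values. *Pdgfrb* measured 2.36 and 2.16 FPKM (fragments per unit of gene length and of library depth) in mutant replicates 1 and 2 and 2.25 and 1.79 FPKM in control replicates 1 and 2, which does not tell the alleles apart. The share of reads on crystallin genes was 62.9% and 58.6% in mutant replicates 1 and 2, and 59.0% and 61.5% in the controls. Of the fixed lens fibre markers, *Cryaa* ranged from 66165 to 74239 FPKM and *Mip* from 3515 to 3974 FPKM, while *Lgsn*, which encodes lengsin, separated the groups at 19.03 and 5.54 FPKM in mutant lenses and 28.5 and 41.0 FPKM in controls (log2 fold change -1.72 ± 0.58, adjusted p = 0.769 in limma). *Lim2*, a major fibre membrane gene, was listed at 0 in all 4, which may be a failed count rather than a level. *Xist*, made in female cells, measured 13.1 FPKM in mutant replicate 2 and 15.6 FPKM in control replicate 1, against 7.62 FPKM in mutant replicate 1 and 5.56 FPKM in control replicate 2, so the pools of each group differed in the share of females. Retina and vessel markers were low. Retina markers summed to 15 and 195 reads in mutant lenses and 86 and 18 reads in controls. Vessel markers gave 208 and 127 against 270 and 199 reads, with overlap between the groups in both sets. All 5 vessel markers had log2 fold changes below 0, with a median of -0.47. Red cell markers were not low. Among them, *Hba-a1* had a mean of 16.5 FPKM over the 4 libraries, against a median of 14.05 FPKM for the means of the 49 proteasome genes. The red cell sums also overlapped, at 359 and 263 against 538 and 316 reads. All 3 tested red cell genes had log2 fold changes below 0, with *Hba-a1* at -0.50. Marker sums of other non-lens cells did not overlap. Fibroblast and pericyte markers gave 472 and 495 against 591 and 512 reads. The largest part was *Rgs5*, at 278 and 220 against 407 and 360 reads (log2 fold change -0.59). The other 2 tested markers of this set, *Col1a1* (1.22) and *Col1a2* (0.29), were higher in mutant lenses. Pigmented ciliary body and iris markers gave 29 and 40 against 42 and 68 reads. Macrophage and leukocyte markers went the other way, at 19 and 34 against 16 and 9 reads. The part of *Lgsn* and of these other cells in the proteasome values was not tested. The summed lens epithelium markers overlapped, at 124 and 148 FPKM against 139 and 143 FPKM, with *Foxe3* (mean 113 FPKM) as the largest part. Of the 5 markers, 4 had log2 fold changes below 0, among them *Cdh1* (-0.38) and *Pdgfra* (-0.28). *Pdgfra* lay lower in both mutant libraries, at 4.02 and 5.25 FPKM against 5.86 and 5.32 FPKM. In such whole-lens RNA, more cells of a type and more RNA in each cell cannot be told apart.

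The 26S proteasome is the main protease of the cytosol and nucleus for proteins tagged with ubiquitin. Its 20S core is a barrel of alpha rings, which gate the entrance, around beta rings, which hold the catalytic sites. The 19S cap recognises ubiquitin, removes it, and unfolds and threads the substrate by means of a ring of ATPases. Other caps, the PA28 and PA200 activators, can replace 19S, and dedicated chaperones build the particle. In the lens, fibre cells clear their organelles and then keep their crystallins for life, and ubiquitin-dependent proteolysis has long been studied in this tissue.

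Proteasome transcripts were present throughout the family and lay modestly higher in mutant lenses. The summed FPKM of the 49 genes was 1143 and 1077 in mutant replicates 1 and 2 and 970.2 and 1004 in control replicates 1 and 2, that is 1109.7 ± 46.9 against 987.2 ± 24.0 (mean ± SD, n = 2 each), a ratio of 1.12. Both mutant libraries lay above both controls. As a share of all FPKM in the library the family took 0.154% and 0.170% in mutant lenses and 0.151% and 0.146% in control lenses, so the order of the groups held while the gap between mutant replicate 1 and control replicate 1 narrowed.

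Of the 49 genes, 45 had a mean of at least 0.1 FPKM and entered the fit of limma on log2(FPKM + 0.1) across 15997 genes. The lowest of these was *Psmg3* at a mean of 0.506 FPKM, and the highest of the 4 left out was *Psmb8* at 0.0749 FPKM. The log2 fold change, mutant over control, was above 0 for 41 of the 45, with 50.7% of all tested genes above 0. The FPKM rest on the authors' library denominators, and the count was 35 of 45 when each library was instead brought to an equal summed FPKM, with or without the crystallins in that sum (equal-sum scaling, under which 44.6% and 43.8% of all tested genes were above 0). The family is abundant, and among the genes of at least 5 FPKM the share above 0 was 60.1%, against 36 of the 37 proteasome genes at that level. The median log2 fold change of the 45 genes was 0.17, compared with 0.00 for all tested genes and 0.04 for those of at least 5 FPKM.

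Both mutant libraries exceeded both controls for 27 of the 45 genes (18.2% of all tested genes, and 25.4% of those of at least 5 FPKM). The reverse held for 1 gene, *Psmd9* (18.3% of all tested genes), and the groups overlapped for the other 17. An unadjusted p under 0.05 with a higher mutant level was reached by 8 genes (3.39% of all tested genes, and 4.85% of those of at least 5 FPKM), and by no gene with a lower one. No proteasome gene passed Benjamini-Hochberg adjustment in limma, where 6 genes (0.0375% of all tested) had an adjusted p under 0.05 and the adjusted p of the family ran from 0.717 to 0.994. Individual differences were small: 11 genes had a ratio of mean FPKM above 1.2, 3 of them above 1.3, and for 15 genes the standard error was larger than the log2 fold change itself.

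**Figure D1:**
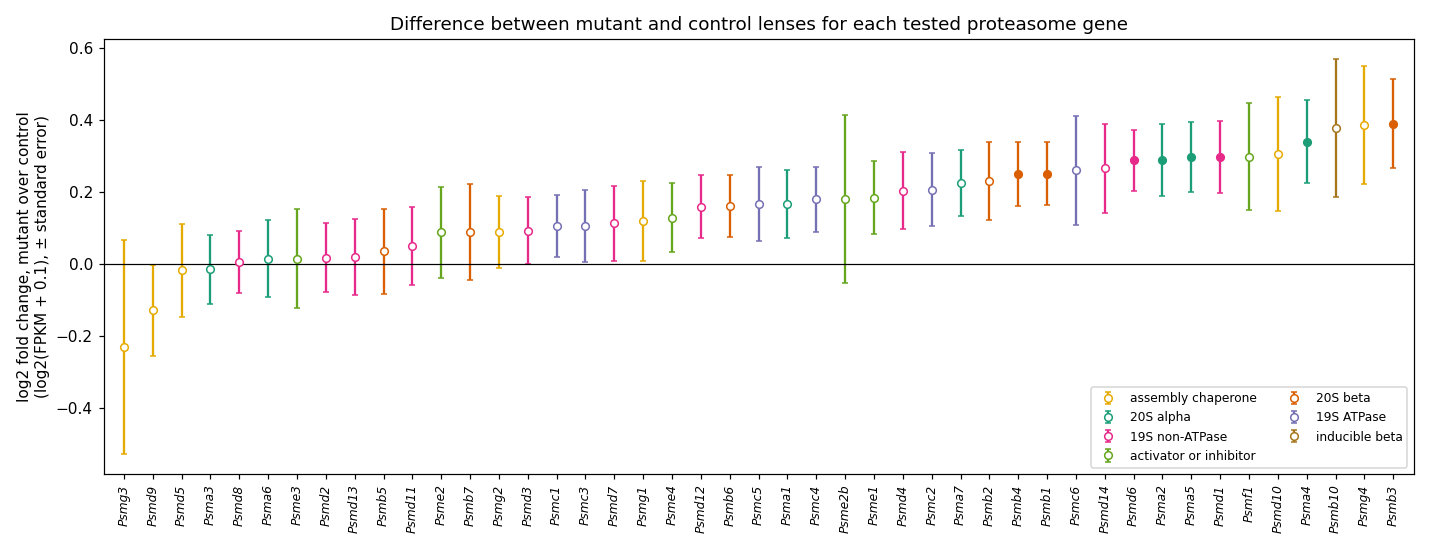
Log2 fold change (mutant over control, log2(FPKM + 0.1) scale, vertical axis) with its standard error for the 45 tested proteasome genes, ordered along the horizontal axis and coloured by class. Filled points have an unadjusted limma p under 0.05 (8 genes, all above 0), and 4 genes, 3 of them assembly chaperones, lie below 0.

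The libraries did not contribute alike. Mutant replicate 1 was the highest library for 26 of the 45 genes and mutant replicate 2 for 15, whereas each control was the highest for 2. Control replicate 1 was the lowest library for 29 genes and control replicate 2 for 9. This order depends on the authors' denominators. Relative to recovered reads, the denominator was smallest for mutant replicate 1 (0.944), which raises its FPKM, against 0.987 for control replicate 2. It was larger for control replicate 1 (1.048) and mutant replicate 2 (1.049). As a share of all FPKM, the family was instead highest in mutant replicate 2 (0.170%) and lowest in control replicate 2 (0.146%). The mutant libraries can also be set against the control of similar *Xist* level, that is mutant replicate 1 against control replicate 2, and the other two likewise. In these pairs the median log2 difference was 0.16 and 0.17. In both, 33 of the 45 genes were higher in the mutant (26.7% of all tested genes, and 38.0% of those of at least 5 FPKM). The 27 genes with both mutant libraries above both controls are higher under any pairing, so for them this is not a separate check. Paired by replicate number instead, the medians were 0.21 and 0.09.

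The family was also placed among all tested genes by level. In the plot of log2 fold change against mean FPKM, the proteasome genes form a narrow band at middle to high levels and mostly just above 0, well within the range that other genes of their level span.

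**Figure D2:**
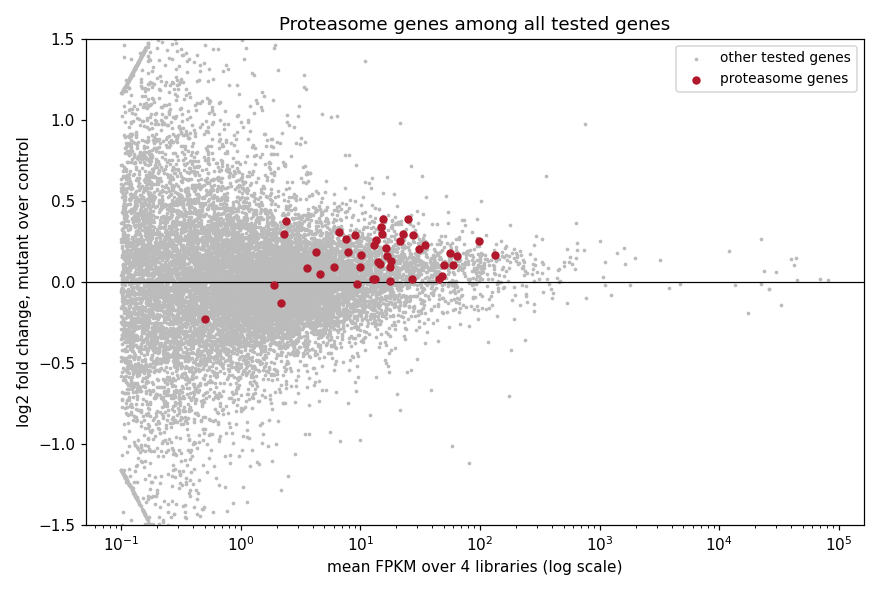
Log2 fold change (mutant over control, vertical axis) against mean FPKM over the 4 libraries (horizontal axis, log scale) for the 45 tested proteasome genes (red) and the other tested genes (grey). The proteasome genes run from -0.23 to 0.39, and 551 other genes lie outside the axis limits of 1.5 in either direction.

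The alpha subunits of the 20S core, which form the outer rings and the gate, summed to 135 and 129 FPKM in the mutant libraries and 119 and 117 FPKM in the controls. Their median log2 fold change was 0.22, and 6 of 7 were above 0 (5 of 7 with equal-sum scaling, where the sums of the groups overlapped unless the crystallins were left out). *Psma5* measured 25.9 and 24.4 FPKM in mutant lenses and 21.4 and 19.4 FPKM in controls (log2 fold change 0.30 ± 0.10, SE). *Psma4* gave 15.7 and 17.3 FPKM against 13.95 and 12.1 FPKM, a log2 fold change of 0.34 ± 0.11. *Psma2*, the lowest of the class by FPKM apart from *Psma8*, gave 9.42 and 10.3 FPKM against 7.95 and 8.14 FPKM, a log2 fold change of 0.29 ± 0.10. For all 3 the groups did not overlap, and the adjusted p in limma was 0.769. The most abundant alpha transcript, *Psma6*, did not separate the groups, with 49.7 and 42.6 FPKM in mutant lenses and 45.2 and 45.9 FPKM in controls. *Psma3* was also level, at 9.49 and 9.13 FPKM against 9.18 and 9.64 FPKM. *Psma8*, the alpha subunit of the germ cell proteasome, had 1 read in mutant replicate 1 and 1 read in control replicate 1.

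The constitutive beta subunits of the 20S core formed the class with the largest median log2 fold change, 0.23, among those with more than 1 tested gene, and all 7 were above 0 (6 of 7 with equal-sum scaling, *Psmb5* being the exception). Their sum was 344 and 319 FPKM in mutant lenses and 285 and 294 FPKM in controls. *Psmb3*, a structural subunit, had a log2 fold change of 0.39 ± 0.12, from 30.9 and 25.7 FPKM in mutant lenses and 20.6 and 22.5 FPKM in controls. Leaving out mutant replicate 1 lowered it to 0.26, a change of over 1.5 times, and *Psmg4* and *Psmb10* had similar or larger ratios of mean FPKM (1.32 and 1.33, against 1.32 for *Psmb3*). *Psmb4*, also without a catalytic site and the most abundant core transcript, measured 111 and 103 FPKM against 89.0 and 90.6 FPKM, a log2 fold change of 0.25 ± 0.09. *Psmb1* behaved alike, at 23.4 and 22.8 FPKM against 18.96 and 19.9 FPKM. These 3 genes all belong to the structural beta subunits, and each had both mutant libraries above both controls, with adjusted p in limma of 0.748 to 0.774.

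The catalytic beta subunits are *Psmb5*, *Psmb6* and *Psmb7*, which carry the chymotrypsin-like, caspase-like and trypsin-like sites. Each has an inducible counterpart, *Psmb8*, *Psmb9* and *Psmb10*, that interferon signals bring into the immunoproteasome of antigen-presenting and inflamed cells. The active site is the threonine that becomes the first residue once the propeptide is cut off. The first 60 bases of the coding sequence from that threonine on are given for each gene, from GENCODE M21 transcripts of the GRCm38 build, so that each constitutive gene can be compared with its counterpart. The capitals mark the threonine codon.

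Psmb5: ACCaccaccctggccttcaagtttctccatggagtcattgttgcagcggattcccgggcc
Psmb8: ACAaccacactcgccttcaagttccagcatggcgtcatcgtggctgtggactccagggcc
Psmb6: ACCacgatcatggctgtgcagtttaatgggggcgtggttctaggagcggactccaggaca
Psmb9: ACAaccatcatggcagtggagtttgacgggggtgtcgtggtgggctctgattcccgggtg
Psmb7: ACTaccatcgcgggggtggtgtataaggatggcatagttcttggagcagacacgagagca
Psmb10: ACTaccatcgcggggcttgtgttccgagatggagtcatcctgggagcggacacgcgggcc

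Over these 60 bases *Psmb5* and *Psmb8* shared 47 identical positions, *Psmb6* and *Psmb9* shared 41, and *Psmb7* and *Psmb10* shared 43. No run of 31 bases was common to the coding sequences of any of the 3 pairs, the longest being 18, 11 and 15 bases, so no stretch of 31 coding bases fits both genes of a pair. By the deposited positions (mm39), *Psmb5* spans chr14:54851576-54855479 on the minus strand. *Psmb9* (chr17:34400961-34406738, minus strand) and *Psmb8* (chr17:34416695-34420428, plus strand) flank *Tap1* in the major histocompatibility region, and *Psmb10* lies at chr8:106662367-106665076 on the minus strand.

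The catalytic transcripts were almost entirely of the constitutive kind in both groups. *Psmb6* measured 68.9 and 67.9 FPKM in mutant lenses and 59.3 and 63.0 FPKM in controls, with no overlap (log2 fold change 0.16 ± 0.09, adjusted p = 0.811 in limma). *Psmb5* measured 51.9 and 46.2 FPKM against 51.5 and 44.3 FPKM, and *Psmb7* measured 19.3 and 17.2 FPKM against 15.5 and 18.9 FPKM. In both of these the groups overlapped. The structural subunits described above were shown because of their unadjusted p under 0.05, so they cannot serve as a contrast to the catalytic ones. The sum of the 3 was 140 and 131 FPKM in mutant lenses and 126 FPKM in each control.

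Of the inducible subunits, *Psmb10* had 70 and 106 reads in mutant lenses and 64 and 69 reads in controls, or 2.30 and 3.18 FPKM against 1.93 and 2.20 FPKM. Its log2 fold change was 0.38 ± 0.19 (adjusted p = 0.811 in limma), the groups did not overlap, and mutant replicate 2 lay furthest out. Without that library the value was 0.15, and without mutant replicate 1 it was 0.60. *Psmb8* had 8 and 5 reads in mutant lenses and 6 and 0 in controls. *Psmb9* had 11 and 2 reads in mutant lenses and 1 and 0 in controls, and 11 of its 14 reads were in mutant replicate 1. The inducible subunits made up 1.82% and 2.44% of the catalytic FPKM in mutant lenses and 1.58% and 1.71% in controls. Summed reads of 6 macrophage and leukocyte markers were 19 and 34 in mutant lenses and 16 and 9 in controls, with *Ptprc*, the pan-leukocyte marker, at 2, 1, 2 and 0 reads and *Cd68* at 6, 16, 4 and 2 reads in mutant replicates 1 and 2 and control replicates 1 and 2. The part of such cells in the *Psmb10* values was not tested. *Psmb11*, the beta subunit of the thymus, had 0 reads in every library, which allows up to 3 reads in each.

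**Figure D3:**
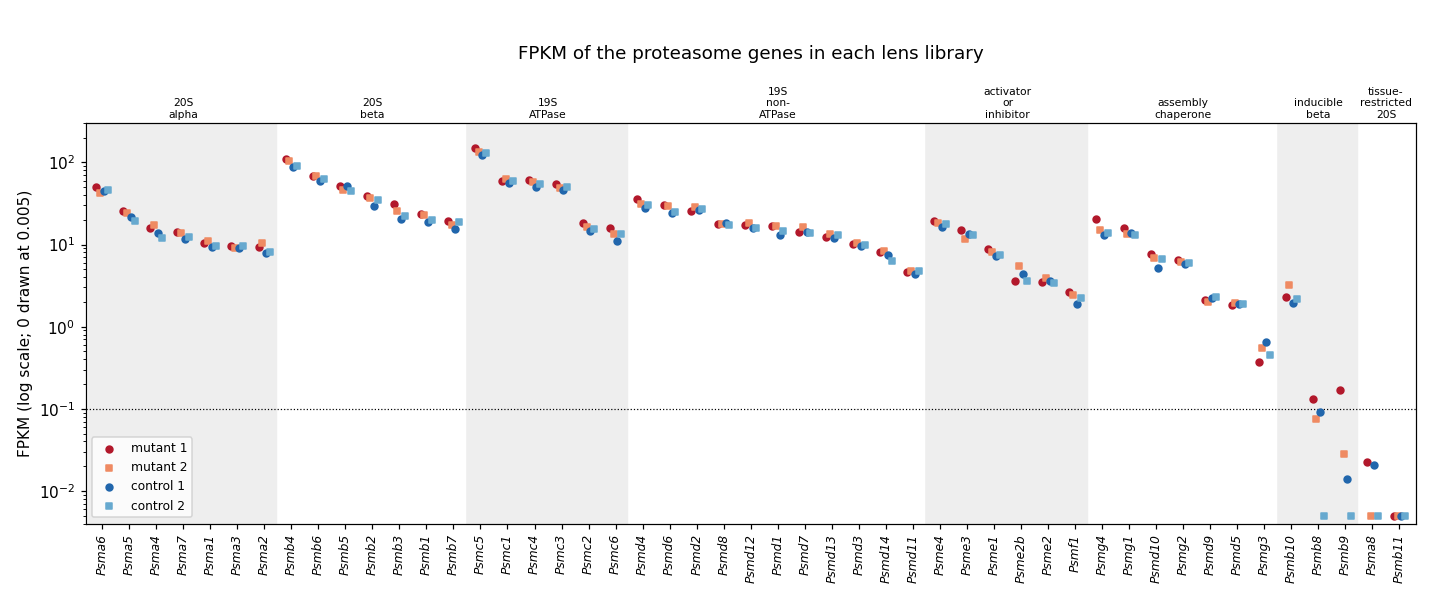
FPKM (vertical axis, log scale, 0 drawn at 0.005) of the 49 proteasome genes in mutant replicates 1 and 2 (red circles, orange squares) and control replicates 1 and 2 (dark blue circles, light blue squares), by class. The dotted line marks 0.1 FPKM, and the inducible *Psmb8* and *Psmb9* and the tissue-restricted *Psma8* and *Psmb11* are the 4 genes whose mean lies below it.

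The ATPase ring of the 19S cap, *Psmc1* to *Psmc6*, unfolds substrates and opens the gate of the core. It summed to 361 and 334 FPKM in mutant lenses and 302 and 321 FPKM in controls, all 6 genes had a log2 fold change above 0 under every scaling tried, and the median was 0.17. *Psmc5* was the most abundant proteasome transcript by FPKM, at 150.5 and 133 FPKM in mutant lenses and 123 and 129 FPKM in controls. *Psmc6* was the lowest of the ring, at 15.9 and 13.3 FPKM against 10.9 and 13.5 FPKM, and its groups overlapped. No ATPase gene had an unadjusted p under 0.05 in limma.

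The non-ATPase subunits of the 19S cap hold the ubiquitin receptors, the deubiquitinase and the scaffold. All 11 were above 0 (8 of 11 with equal-sum scaling), with a median log2 fold change of 0.11, and their sum was 193 and 195 FPKM in mutant lenses and 173 and 178 FPKM in controls. *Psmd6*, a lid subunit, had the smallest unadjusted p of the family, 0.0181 in limma (adjusted p = 0.717), from 30.5 and 29.7 FPKM in mutant lenses and 24.2 and 24.99 FPKM in controls. *Psmd1*, the large base scaffold, measured 16.9 and 16.8 FPKM against 12.97 and 14.5 FPKM, a log2 fold change of 0.30 ± 0.10. *Psmd14*, the deubiquitinase of the lid, measured 8.19 and 8.33 FPKM against 7.49 and 6.27 FPKM. *Psmd4*, a ubiquitin receptor and the most abundant of the class, measured 35.5 and 31.2 FPKM against 27.7 and 30.1 FPKM. Not every subunit followed: *Psmd2*, *Psmd8* and *Psmd13* had log2 fold changes of 0.02, 0.01 and 0.02 and fell below 0 with equal-sum scaling, and *Psmd11*, the lowest of the class, measured 4.69 and 4.75 FPKM against 4.37 and 4.74 FPKM.

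The activators and the inhibitor were a low but complete set. *Psme4*, which encodes PA200, was the most abundant at 19.1 and 18.4 FPKM in mutant lenses and 16.4 and 18.0 FPKM in controls, and *Psme3*, the nuclear PA28 gamma, followed at 14.97 and 11.8 FPKM against 13.3 and 13.1 FPKM. *Psme4* thus exceeded *Psme1*, the cytosolic PA28 alpha, by 2.19-fold and 2.28-fold in mutant lenses and 2.27-fold and 2.39-fold in controls, a ratio between genes that depends on the gene lengths used. *Psme1* measured 8.73 and 8.07 FPKM against 7.24 and 7.51 FPKM, and its partner *Psme2* measured 3.47 and 3.97 FPKM against 3.59 and 3.38 FPKM. *Psmf1*, which encodes the inhibitor PI31, measured 2.67 and 2.41 FPKM against 1.88 and 2.23 FPKM (log2 fold change 0.30 ± 0.15). All 6 genes had a log2 fold change above 0 (5 of 6 with equal-sum scaling, *Psme3* being the exception). None had an unadjusted p under 0.05 in limma. Both mutant libraries lay above both controls for *Psme1*, *Psme4* and *Psmf1* (18.2% of all tested genes). With equal summed FPKM the class sums of the groups overlapped, unless the crystallins were left out.

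The assembly chaperones were the class in which directions were mixed, with 4 of 7 above 0 and the same 3 below 0 under every scaling tried. They help the alpha ring (*Psmg1* to *Psmg4*) and the ATPase ring (*Psmd5*, *Psmd9* and *Psmd10*) to form and leave before the particle is complete. *Psmg4* measured 20.4 and 15.1 FPKM in mutant lenses and 12.97 and 13.9 FPKM in controls, a log2 fold change of 0.39 ± 0.16, which was 0.17 without mutant replicate 1 and 0.60 without mutant replicate 2. *Psmd10*, also known as gankyrin, measured 7.67 and 6.88 FPKM against 5.15 and 6.68 FPKM, and its log2 fold change of 0.30 was 0.12 without control replicate 1 and 0.49 without control replicate 2. *Psmd9*, the counterpart of yeast Nas2, measured 2.14 and 2.001 FPKM against 2.23 and 2.31 FPKM, a log2 fold change of -0.13 ± 0.13, with both mutant libraries below both controls. With equal summed FPKM without crystallins, *Psma3*, *Psmd5* and *Psmd8* joined it, making 4 such genes (23.0% of all tested genes). *Psmd5* was level at 1.82 and 1.93 FPKM against 1.91 and 1.88 FPKM. *Psmg3* rested on 19 to 37 reads in a library and had a log2 fold change of -0.23 ± 0.30.

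**Figure D4:**
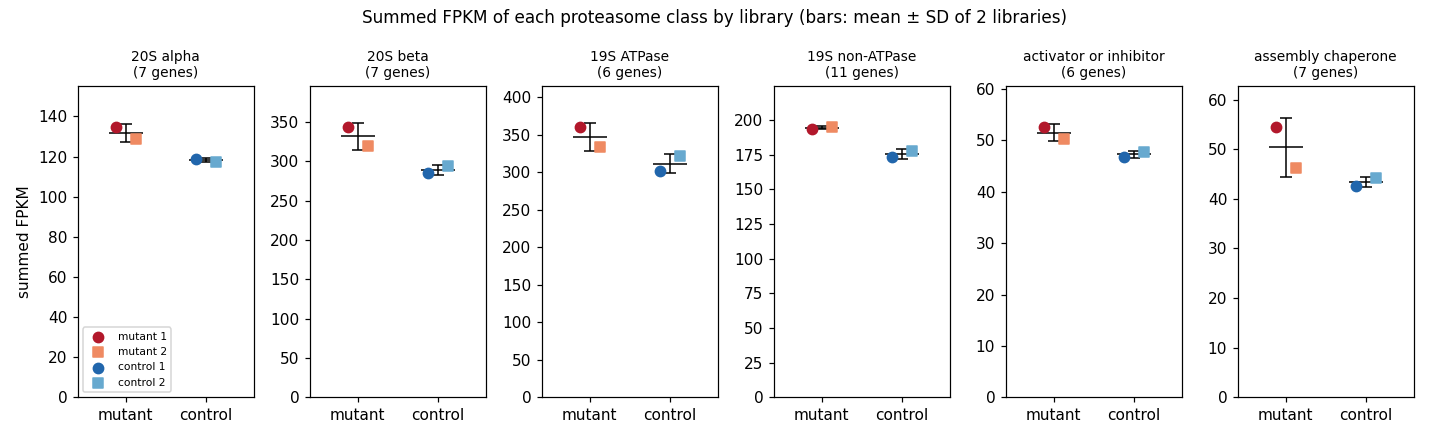
Summed FPKM (vertical axis, from 0) of 6 proteasome classes in each library, with the mean and SD of the 2 libraries of a group in black. Both mutant libraries lie above both controls in each of these classes (with equal summed FPKM the alpha, non-ATPase and activator sums overlap), with the widest spread between mutant libraries relative to the mean in the assembly chaperones (54.5 and 46.2 FPKM).

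Levels could be compared between genes only with their lengths in mind. The deposited length of a gene is 1 to 3.36 times that of its principal GENCODE M21 transcript, with a median of 1.64. Per kilobase of the principal transcript, *Psmb4* (162), *Psmb6* (152) and *Psmc5* (142) were the highest of the family as a mean over the 4 libraries. On that scale the constitutive beta genes ran from 48.5 for *Psmb5* to 162, a 3.35-fold range, and the alpha genes from 11.3 for *Psma2* to 54.3 for *Psma6*, a 4.81-fold range. The subunits of the 20S core are built into the particle in equal numbers, but their transcripts were not at equal levels in either group. The 7 assembly chaperones had a median of 6.78 on the same scale.

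Some members share sequence with other genes, which bears on how far their counts can be trusted. *Psmb5* shared 61.7% of its 31-base words with the processed pseudogene *Gm3375*, which was assigned 1182, 1218, 1267 and 1182 reads in mutant replicates 1 and 2 and control replicates 1 and 2, more than the 832, 813, 901 and 734 reads of *Psmb5*. The sum of both differed 1.01-fold between the groups. *Psma3* shared 22.5% of its words with the processed pseudogene *Gm13835* (435, 432, 327 and 357 reads), and the sum of that pair had a ratio of 1.09, against 0.99 for *Psma3* alone. *Psme2* shared 66.2% of its words with the near copy *Psme2b*, itself a member with 54, 91, 71 and 55 reads. In all, 13 members shared at least 10% of their words with another gene, and the values of *Psmb5*, *Psma3*, *Psme2* and *Psme2b* are uncertain for this reason. Among the 8 genes with an unadjusted p under 0.05, each single copy of *Psmb3*, *Psma4* and *Psma5* held at most 7.04% of the reads of its pair. *Psma5* had 2 such copies, at 6.37% and 6.64%, and *Psmb3* had 5. In all, 64.0% of the words of *Psma5*, 66.8% of *Psmb3* and 38.9% of *Psma4* were shared, so their values are also less certain. The spans of 23 members overlapped another gene, and for 6 of them (*Psmc3*, *Psmd13*, *Psma2*, *Psmb7*, *Psme1* and *Psmb9*) the overlapping genes had over 10% of the member's reads. Whether reads were counted by strand is not given in the sources used here.

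Outside the family, 11 proteins that dock on, build or load the proteasome were found among 12 listed, *Paaf1* not being matched. Of these, 9 had a log2 fold change above 0 (7 with equal-sum scaling) and none had an unadjusted p under 0.05 in limma. *Pomp*, the maturation chaperone of the core, measured 23.7 and 19.4 FPKM in mutant lenses and 17.7 and 18.9 FPKM in controls (log2 fold change 0.23 ± 0.13). *Adrm1*, the ubiquitin receptor Rpn13, measured 15.4 and 16.6 FPKM against 12.3 and 14.1 FPKM (0.28 ± 0.11). *Sem1*, the small lid subunit, overlapped between the groups at 8.30 and 7.11 FPKM against 7.78 and 5.77 FPKM.

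Most genes that control subunit transcription lay below 0. Cells answer proteasome loss through *Nfe2l1*, a membrane-bound factor that is freed by *Ngly1* and *Ddi2* and pairs with small Maf proteins. Of 8 listed genes 6 had a log2 fold change below 0 (7 with equal-sum scaling). *Nfe2l1* measured 11.5 and 12.4 FPKM in mutant lenses and 14.95 and 13.8 FPKM in controls, a log2 fold change of -0.27 ± 0.10 (adjusted p = 0.784 in limma). *Mafg*, a small Maf partner, measured 13.7 and 13.8 FPKM against 16.7 and 15.8 FPKM, a log2 fold change of -0.24 ± 0.09. These were the only 2 of the list with an unadjusted p under 0.05 (2.92% of all tested genes had such a p with a lower mutant level).

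A motif search was made in the RefSeq promoters (GRCm38.p6, 250 bases before to 50 after the start). The letters TGACNNNGC, the core of the element that *Nfe2l1* and *Nfe2l2* bind with small Maf proteins, were sought on both strands, as were the letters CCAAT. The member promoters available were 44, from 41 of the 49 genes, so the remaining members were not searched. TGACNNNGC was found in 6 of these 44 (13.6%), those of *Psmb5*, *Psmb6*, *Psmc6*, *Psmd9*, *Psmd12* and *Psme4*, against 12.98% of all 21263 promoters. CCAAT was found in 31.8% against 38.2%. Windows around the match are shown for the 2 catalytic core genes and 1 cap ATPase, with the match in capitals, at chr14:54618023-54618053 (minus strand, *Psmb5*), chr11:70525337-70525356 (plus strand, *Psmb6*) and chr14:45329586-45329616 (plus strand, *Psmc6*, where the match is on the opposite strand).

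Psmb5: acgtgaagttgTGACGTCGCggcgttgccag
Psmb6: actaaagagagTGACGGAGC
Psmc6: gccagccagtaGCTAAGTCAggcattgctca

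The log2 fold changes of the 6 genes with a match were 0.04 for *Psmb5*, 0.16 for *Psmb6*, 0.26 for *Psmc6*, 0.16 for *Psmd12*, -0.13 for *Psmd9* and 0.13 for *Psme4*, so genes with these letters lay on both sides of 0. A match in these windows is a description of the letters only.

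Of 14 genes for ubiquitin, its activation and delivery to the proteasome, 9 had a log2 fold change above 0 (8 with equal-sum scaling). *Ubqln4*, a shuttle factor, was the only one with an unadjusted p under 0.05, at 5.37 and 4.64 FPKM in mutant lenses and 6.36 and 6.33 FPKM in controls (log2 fold change -0.34 ± 0.12, adjusted p = 0.769 in limma). Of 7 partners of the inducible subunits in antigen presentation, 6 were above 0, as were 50.7% of all tested genes. Among the 6, *Tap1* (0.21 ± 0.60) had 4 to 15 reads in a library, *Tap2* (0.27 ± 0.66) 3 to 15 and *Irf1* 8 to 41. The 2 with an unadjusted p under 0.05 in limma, *B2m* and *Nlrc5*, were both higher in mutant lenses (3.39% of all tested genes). *B2m*, the light chain of class I molecules, measured 10.5 and 9.68 FPKM against 5.26 and 6.43 FPKM (log2 fold change 0.78 ± 0.13, adjusted p = 0.370 in limma), and *Nlrc5*, the activator of class I genes, measured 11.1 and 8.25 FPKM against 6.69 and 6.69 FPKM (0.51 ± 0.16).

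**Figure D5:**
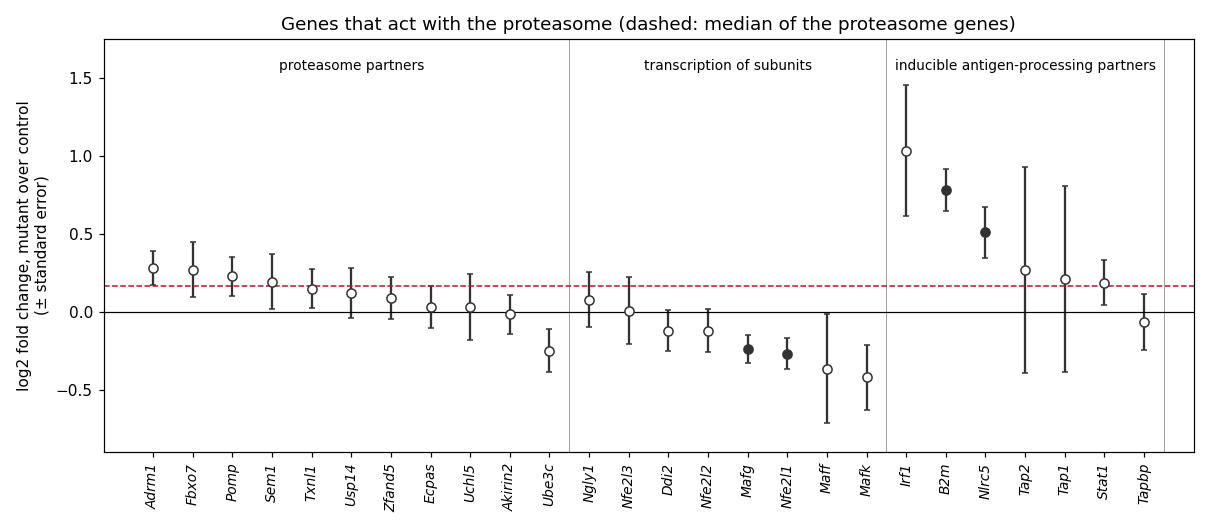
Log2 fold change (mutant over control, vertical axis) with its standard error for the listed genes that act with the proteasome, grouped as partners, transcription of subunits, and partners of the inducible subunits. The dashed line is the median of the tested proteasome genes, and filled points (*Mafg*, *Nfe2l1*, *B2m* and *Nlrc5*) have an unadjusted limma p under 0.05.

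Scaling moved the counts, while the median log2 fold change of the family stayed above 0. With equal summed FPKM, both mutant libraries exceeded both controls for 20 of the 45 genes (13.99% of all tested genes), and 2 genes had an unadjusted p under 0.05 in limma with a higher mutant level (2.12% of all tested genes). With the crystallins left out of that sum the counts were 23 (13.98%) and 3 (2.59%). *Psma6*, *Psmb5*, *Psme3*, *Psmd2*, *Psmd8* and *Psmd13* fell below 0 under both. With 2 libraries in each group, an exact two-sided permutation test of a single value cannot give a p below 0.333.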

How the data were processed

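RNA-seq was measured in 2 mutant and 2 control libraries of pooled lenses. Before deposit, the reads were aligned with HISAT2 and counted with featureCounts by the authors' sequencing provider, which then derived FPKM. The deposited table gives FPKM per gene with gene length and position (build mm39 per the labels), and 0 of its per-sample columns were left unused. Whole reads were recovered from FPKM, gene length and the smallest step (100% of values within 0.01 of a whole number), and they serve as depth. Each library's FPKM denominator was the authors' and was kept.

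Differences were fitted on log2(FPKM + 0.1) for genes averaging 0.1 FPKM or more. The fit used limma 3.58.1 (lmFit, eBayes with trend, Benjamini-Hochberg, two-sided) in R 4.3.3. On simulated reads (dispersion 0.02) it recovered 59.3% of 199 genes given a log2 change of 2, at an adjusted p under 0.05. It also called 40 unchanged genes there, whereas voom recovered 75.9% and called 2 unchanged genes. Fold changes on this scale understate those of low genes. Groups came from the sample labels. The study used DESeq2 on counts, which is not repeated here. The members, gene lists and alternatives were chosen with earlier results of these data known. Values per library were given for the catalytic subunits, the activators and inhibitor, genes with an unadjusted p under 0.05, the 3 largest differences in each direction, and the highest and lowest member of each class. *Psma3*, *Psmd2*, *Psmd8*, *Psmd13*, *Psmd14*, *Psmd10*, *Lgsn*, *Rgs5*, *Col1a1*, *Col1a2*, *Foxe3*, *Cdh1*, *Pdgfra*, *Hba-a1* and listed partners were named from the same tables. Transcript sequences and lengths came from GENCODE M21, promoters from RefSeq, both on GRCm38, and no coordinates were converted. Shared 31-base words, the range at 5 FPKM and scaling by recovered reads were added after the values were seen. Replicate numbers were not taken to pair the libraries: the correlation of their deviations over genes was -0.01. Python 3.11.15 and matplotlib 3.10.9 were used otherwise.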

Additional observations from a re-analysis of the deposited data

How the results depend on the processing

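The median log2 fold change of the proteasome genes stayed above 0 under each alternative run. It moved beyond the spread between libraries with equal summed FPKM (0.12) and with equal summed FPKM without crystallins (0.12). The median of all tested genes moved down as well, from 0.004 to -0.034 and -0.040. Scaling by recovered reads in place of the authors' denominators, chosen after the values were seen, left 36 of 45 genes above 0 (45.9% of all tested genes). The 8 genes with an unadjusted p under 0.05 became 2 with equal summed FPKM (2.12% of all tested genes), 3 without crystallins in that sum (2.59%), 0 in limma without a trend (3.15%) and 2 with the replicate block (3.07%), and were 10 with a covariate for the *Xist* split (3.71%). The count of all genes with an adjusted p under 0.05, 6 as reported, was 2 with a pseudocount of 1, a pseudocount of 0.01, a mean FPKM of at least 1 or at least 5, or no trend, 1 with no filter or the *Xist* covariate, 3 with the replicate block and 14 in voom on recovered reads. No proteasome gene passed in any of these, the smallest adjusted p being 0.335. No source used here says that replicate numbers mark a shared litter or day, and the deviations of same-numbered libraries did not correlate (-0.01). Leaving out each library in turn gave 38 to 40 genes above 0, with 7915 to 8125 of all 15997 tested genes above 0. The medians were 0.13 to 0.19 and the ratios of summed FPKM 1.09 to 1.16.

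Of the 45 tested members, 13 changed sign under some alternative, all 13 on leaving out 1 library and 6 of them also under a scaling, and for 32 leaving out 1 library moved the log2 fold change by over 1.5 times or changed its sign. Among the 27 tested members that the naming rule takes, 9 changed sign. With equal summed FPKM, and then without crystallins, *Psma6* had log2 fold changes of -0.0277 and -0.0336, *Psmb5* of -0.00703 and -0.0129 and *Psme3* of -0.0269 and -0.0327. Among those 27, leaving out 1 library turned *Psma6*, *Psmb5*, *Psmb7*, *Psmd11*, *Psme2*, *Psme2b* and *Psme3* negative and *Psmd5* and *Psmg3* positive. Across these the log2 fold change ran for *Psma6* from -0.0969 to 0.126, for *Psmb5* from -0.0737 to 0.144, for *Psmb7* from -0.0540 to 0.232, for *Psmd11* from -0.00704 to 0.107, for *Psmd5* from -0.0585 to 0.0243, for *Psme2* from -0.00681 to 0.183, for *Psme2b* from -0.121 to 0.483, for *Psme3* from -0.153 to 0.184 and for *Psmg3* from -0.463 to 0.00387. The cause of these shifts was not tested. *Psmb10* ran from 0.155 to 0.601 and *Psmg4* from 0.168 to 0.602. Genes with few reads, such as *Psmg3*, *Psmb8* and *Psmb9*, are limited by depth.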
